A study of Mus musculus with 8 samples.

Results

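Mast cell transcripts were followed in paw tissue through 10 genes, taken by symbol from a given list: the granule proteases Cpa3, Mcpt4, Cma1, Tpsb2 and Tpsab1, the receptor genes Kit, Fcer1a and Ms4a2, the histamine enzyme gene Hdc and the transcription factor gene Gata2. All 10 were among the 22609 gene symbols in the files, and all 10 passed the filter on low counts with 14790 genes in all. The libraries came from 4 female and 4 male C57BL/6J mice. Every animal, of either sex, was labelled as given 12 daily injections of 0.1 µg prolactin into the paw sole, so no untreated paw serves as background here. PBS and single-injection arms that the protocol names were not analysed here. The labels give neither age nor any transgene, and they do not say whether each library is 1 animal, so p-values measure the spread between these libraries. The comparison asks whether prolactin-exposed paw differs between the sexes, in a series on sex and lasting pain.

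Mast cells are tissue-resident immune cells that lie in the dermis, along vessels and beside nerve endings. They store histamine, heparin and proteases in granules and release them when antigen crosslinks IgE on the high-affinity receptor FcεRI, or when other ligands act on them. Skin mast cells of the mouse are of the connective tissue type, which makes chymases, tryptases and a carboxypeptidase, and they depend on the receptor tyrosine kinase Kit for survival. In the paw their mediators are known to sensitise pain fibres.

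The promoter sequences of 6 of these genes are shown because the transcripts of the first 5 varied together over the libraries while that of Kit did not, as described further on. They come from RefSeq on GRCm38.p6, each from 250 bases before to 50 bases after the annotated start, on the strand of the gene and 5′ to 3′. The files' own build, mm9, differs, so the coordinates locate the sequences and not the counts. The windows are chr3:20242132-20242431 (minus strand) for Cpa3, chr14:56062261-56062560 (minus) for Mcpt4, chr14:55944626-55944925 (minus) for Cma1, chr1:173227180-173227479 (minus) for Fcer1a, chr19:11623670-11623969 (minus) for Ms4a2 and chr5:75574737-75575036 (plus) for Kit. Capitals mark every GATAA on either strand (read as TTATC on the other), the core that GATA factors such as the product of Gata2 bind.
Cpa3: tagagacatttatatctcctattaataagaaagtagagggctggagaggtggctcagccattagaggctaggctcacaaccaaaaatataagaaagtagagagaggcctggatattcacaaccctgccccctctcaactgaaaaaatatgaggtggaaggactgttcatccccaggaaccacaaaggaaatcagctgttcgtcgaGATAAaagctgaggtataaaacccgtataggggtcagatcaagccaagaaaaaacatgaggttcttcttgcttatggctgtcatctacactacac
Mcpt4: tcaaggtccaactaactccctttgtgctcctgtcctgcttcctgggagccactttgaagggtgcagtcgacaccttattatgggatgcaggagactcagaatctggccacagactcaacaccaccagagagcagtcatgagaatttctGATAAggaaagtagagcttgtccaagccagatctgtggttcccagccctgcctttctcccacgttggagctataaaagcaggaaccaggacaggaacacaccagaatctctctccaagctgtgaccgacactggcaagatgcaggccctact
Cma1: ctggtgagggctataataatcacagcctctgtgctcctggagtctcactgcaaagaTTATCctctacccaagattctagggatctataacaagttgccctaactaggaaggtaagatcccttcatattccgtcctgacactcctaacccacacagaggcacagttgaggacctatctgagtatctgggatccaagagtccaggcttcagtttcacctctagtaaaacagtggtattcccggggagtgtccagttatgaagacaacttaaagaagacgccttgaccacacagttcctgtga
Fcer1a: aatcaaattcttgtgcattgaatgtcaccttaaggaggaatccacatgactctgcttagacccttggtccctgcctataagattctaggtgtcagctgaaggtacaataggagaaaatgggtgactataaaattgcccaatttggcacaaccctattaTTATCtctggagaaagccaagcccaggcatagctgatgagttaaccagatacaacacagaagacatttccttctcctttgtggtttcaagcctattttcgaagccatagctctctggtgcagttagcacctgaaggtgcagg
Ms4a2: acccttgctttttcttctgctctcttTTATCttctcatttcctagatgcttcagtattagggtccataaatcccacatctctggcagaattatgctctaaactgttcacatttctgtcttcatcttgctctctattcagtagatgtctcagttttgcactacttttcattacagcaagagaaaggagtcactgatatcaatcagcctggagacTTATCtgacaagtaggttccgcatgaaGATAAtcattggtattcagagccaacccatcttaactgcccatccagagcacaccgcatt
Kit: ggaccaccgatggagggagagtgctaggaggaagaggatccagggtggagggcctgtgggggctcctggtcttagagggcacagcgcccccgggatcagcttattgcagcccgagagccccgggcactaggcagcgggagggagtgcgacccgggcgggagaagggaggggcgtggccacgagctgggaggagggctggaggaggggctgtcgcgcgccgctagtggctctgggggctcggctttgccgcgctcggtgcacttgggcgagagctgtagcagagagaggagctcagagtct

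Of the 8 members with a promoter in the table, 5 held at least 1 GATAA in the first window listed (Cpa3, Mcpt4, Cma1, Fcer1a and Ms4a2), and Ms4a2 held 3. Kit, Hdc and Gata2 held none in that window. The motif occurred in 25.4% of all 32851 promoter windows. CANNTG, the E-box that basic helix-loop-helix factors bind, occurred in 5 of the 8 and in 72.3% of all windows, and none of its matches in the members overlapped a GATAA. No promoter was available for Tpsb2, which varied together with the first 5, or for Tpsab1. The genes shown were picked after their counts were seen, and a part of the motif in their co-variation was not tested. These matches describe letters in a window and are not evidence of binding.

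Counts in genes ranged from 16753528 to 24993744 in female libraries and from 18183645 to 20416187 in male libraries. Levels are given in CPM, the counts of a gene over those of its library in units of 1e6, with library sizes scaled by TMM, a factor that corrects for composition. Xist stood between 1567 and 1859 CPM in females and between 1.39 and 1.91 CPM in males, and Ddx3y had 1 to 3 counts per female and 2304 to 2882 per male library, so the labels held in all 8. Keratinocyte, fibroblast and endothelial markers were present in all 8 libraries, and the levels of muscle genes differed widely. The summed level of 15 fast muscle genes was 195 to 24778 CPM in females and 1258 to 33127 CPM in males, with female replicate 3 lowest. Female replicate 4 stood apart in mast cell transcripts, and the comparison between the sexes and the correlations are also given without it. 

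The granule proteases Cpa3, Mcpt4, Cma1 and Tpsb2 differed severalfold between female libraries and little between male libraries. Cpa3, the mast cell carboxypeptidase, had 24.6, 7.80, 13.8 and 45.4 CPM in female replicates 1 to 4, against 17.7, 16.4, 18.2 and 19.97 CPM in male replicates 1 to 4. Female replicate 4 was the highest library and female replicate 2 the lowest, with all 4 males between them. The means were 22.9 ± 16.5 CPM over the females and 18.0 ± 1.48 CPM over the males (SD, n = 4 each), which did not pass the test (log2 fold change of 0.34 with SE 0.47 and adjusted p = 0.999 by edgeR). In bulk tissue, fewer cells of a type and less RNA per cell cannot be told apart, here and for every level that follows.

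The chymases cleave after aromatic or, for mouse Cma1, elastase-type residues. Mcpt4, the chymase nearest to human chymase in function, had 33.0, 9.70, 19.9 and 58.3 CPM in female replicates 1 to 4, against 19.6, 21.7, 22.0 and 25.3 CPM in male replicates 1 to 4. The females stood in the order they had for Cpa3, and the sexes overlapped (log2 fold change of 0.45 with SE 0.47 and adjusted p = 0.999 by edgeR). Cma1 had 39.5, 13.3, 20.4 and 82.3 CPM in female replicates 1 to 4, against 20.6, 19.2, 23.1 and 21.2 CPM in male replicates 1 to 4. It averaged 38.9 ± 31.0 CPM over the females and 21.0 ± 1.58 CPM over the males (SD, n = 4 each), and the sexes overlapped because female replicate 2 lay below all males and female replicate 3 among them (log2 fold change of 0.89 with SE 0.51 and adjusted p = 0.859 by edgeR).

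The tryptases cleave after basic residues and are held in granules on heparin. Tpsb2 had 23.1, 8.54, 12.1 and 42.2 CPM in female replicates 1 to 4, against 13.1, 14.5, 19.1 and 16.8 CPM in male replicates 1 to 4, again with the males between female replicates 2 and 3 below and 1 and 4 above (log2 fold change of 0.44 with SE 0.46 and adjusted p = 0.999 by edgeR). Tpsab1 is known to carry a splice-site change in C57BL/6 mice that keeps its protein from being made. Its transcript was low, at 3.24, 1.80, 2.78 and 6.17 CPM in female replicates 1 to 4, against 1.29, 2.24, 1.74 and 1.08 CPM in male replicates 1 to 4. It had the smallest p of the 10 members and still did not pass (log2 fold change of 1.14 with SE 0.41 and adjusted p = 0.674 by edgeR, unadjusted p = 0.0216). Only male replicate 2 among the males reached above female replicate 2, the lowest female. The tryptases are similar in sequence, and reads placed in more than 1 position are not in the counts. How reads were divided between near copies is therefore uncertain for the tryptases and the chymases, and this was not measured.

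**Figure D1:**
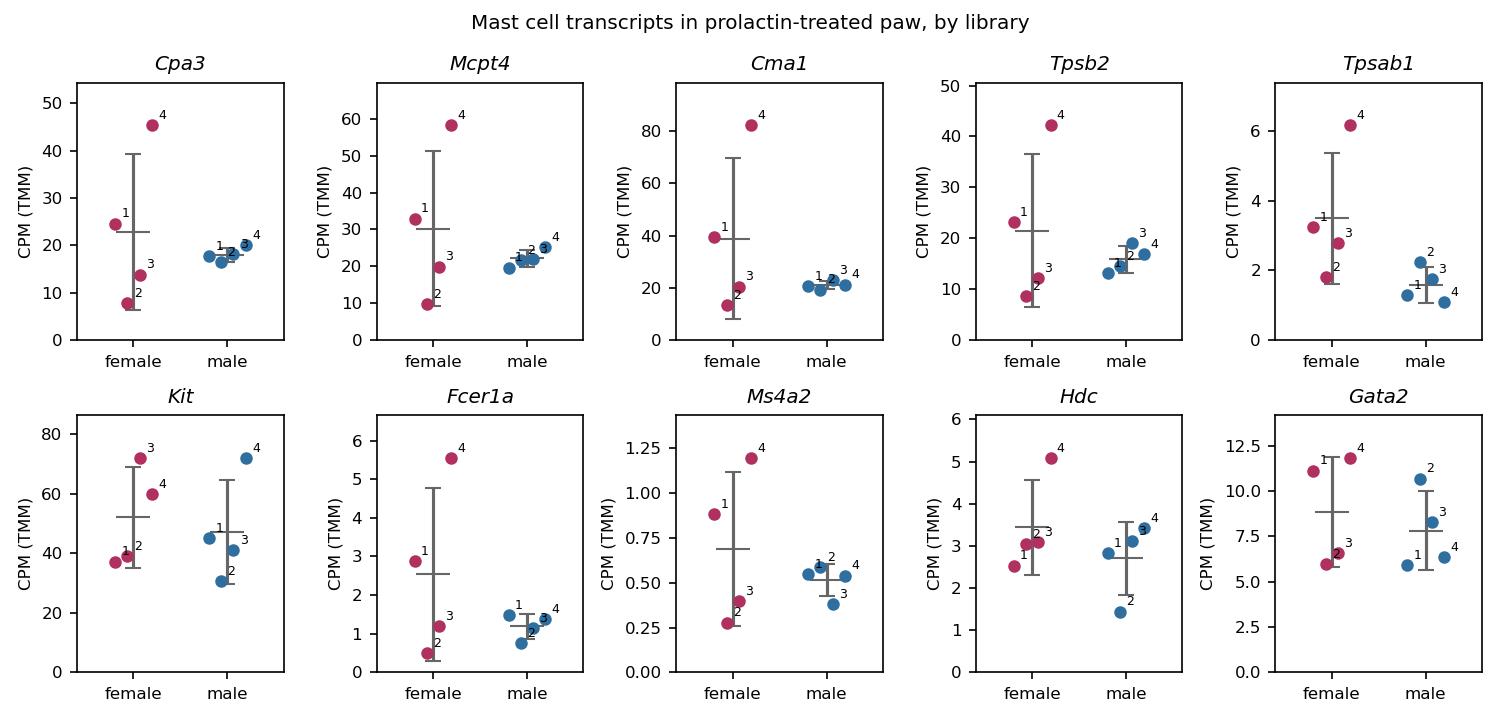
Each panel shows 1 gene, with CPM on a linear axis for the 4 female and 4 male libraries, numbered by replicate, and grey bars for mean and SD. Female replicate 4 is the highest library in all panels except Kit, and male libraries of the abundant proteases lie close together, as for Cma1 between 19.2 and 23.1 CPM.

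The receptor genes did not behave alike. Fcer1a, the IgE-binding chain of FcεRI, had 2.89, 0.508, 1.19 and 5.55 CPM in female replicates 1 to 4, against 1.49, 0.748, 1.14 and 1.37 CPM in male replicates 1 to 4. Female replicate 4 was highest and female replicate 2 lowest of all 8 (log2 fold change of 1.09 with SE 0.65 and adjusted p = 0.867 by edgeR). Ms4a2, the beta chain that amplifies signalling of the same receptor, was the lowest member. It had 0.883, 0.277, 0.397 and 1.19 CPM in female replicates 1 to 4, against 0.547, 0.588, 0.382 and 0.538 CPM in male replicates 1 to 4, from 6 to 31 counts per female and 7 to 11 per male library. Its summed counts gave 0.699 CPM in females (95% exact Poisson interval 0.535 to 0.898) and 0.516 CPM in males (0.368 to 0.702), and these intervals, which cover counting error only, overlap (log2 fold change of 0.42 with SE 0.47 and adjusted p = 0.999 by edgeR). Kit, the receptor for stem cell factor, which melanocytes also express, had 37.2, 39.0, 72.1 and 60.0 CPM in female replicates 1 to 4, against 45.1, 30.7, 41.2 and 72.0 CPM in male replicates 1 to 4. Its highest libraries were female replicate 3 and male replicate 4, not female replicate 4, and the sexes overlapped throughout (log2 fold change of 0.14 with SE 0.30 and adjusted p = 0.999 by edgeR).

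Hdc, the enzyme that makes histamine, had 2.53, 3.05, 3.09 and 5.09 CPM in female replicates 1 to 4, against 2.83, 1.44, 3.11 and 3.43 CPM in male replicates 1 to 4. Female replicate 4 was again highest, but female replicate 2 was not low, and male replicate 2 was lowest (log2 fold change of 0.35 with SE 0.32 and adjusted p = 0.982 by edgeR). Gata2, a transcription factor needed for mast cell identity that endothelium also expresses, had 11.1, 5.96, 6.57 and 11.8 CPM in female replicates 1 to 4, against 5.92, 10.7, 8.29 and 6.36 CPM in male replicates 1 to 4. Female replicates 1 and 4 and male replicate 2 were high and close to each other (log2 fold change of 0.18 with SE 0.29 and adjusted p = 0.999 by edgeR).

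None of the 10 members passed the test between the sexes, which on simulated data missed most 1.5-fold and many 2-fold differences. The edgeR quasi-likelihood test called 0 of 10 at an adjusted p under 0.05, where it called 0.0947% of all 14790 genes (0.0406% as higher in females, 0.0541% as higher in males). At an unadjusted p under 0.05 in edgeR there was 1 member, Tpsab1, against 6.53% of all genes (4.08% as higher in females). DESeq2 also called 0 members (smallest adjusted p = 0.402 for Tpsab1), with 1 at an unadjusted p under 0.05. All 10 log2 fold changes lay above 0, with a median of 0.43, where 52.7% of all tested genes lay above 0 and their median was 0.01. No member had libraries that parted the sexes without overlap, against 4.73% of all tested genes in either direction and 2.93% with the females above. The members varied together over the libraries, as given further on, so their 10 signs are not independent.

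For 4 members the direction rested on 1 library. Without female replicate 4, 6 of the 10 members lay above 0, the median log2 fold change was 0.032, and Cpa3 (-0.24), Mcpt4 (-0.10), Tpsb2 (-0.14) and Ms4a2 (-0.030) lay below 0 in the edgeR fit. Cma1 (0.20), Fcer1a (0.32) and Tpsab1 (0.70) stayed above 0 without it and did not pass. Hdc (0.091), Kit (0.062) and Gata2 (0.0017) were closer to 0 than with all 8 libraries. Without female replicate 2, the lowest library, the median was 0.69. In that edgeR fit Cma1, Tpsab1 and Fcer1a had an unadjusted p under 0.05, beside 854 of all 14946 tested genes, and 0 members were called. The median over all tested genes was 0.018 in that fit and -0.011 without female replicate 4. Kit lay below 0 without female replicate 3 (-0.056) and without male replicate 2 (-0.027).

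**Figure D2:**
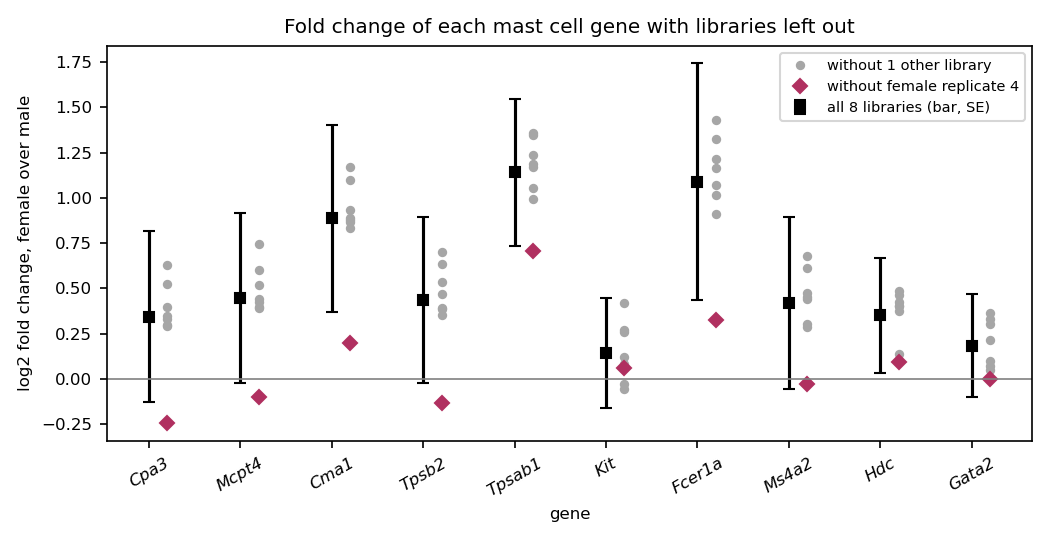
Log2 fold change, female over male, of each gene on the vertical axis, from all 8 libraries (black squares, bars are SE) and with each library left out (grey points). Red diamonds mark the fit without female replicate 4, where 4 genes lie below 0 and Cpa3 is lowest at -0.24.

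For several members the female libraries spread further than the male libraries. For Cpa3 the SD of log2 CPM was 1.09 over the 4 females and 0.117 over the 4 males, for Cma1 1.149 in females and 0.108 in males, and for Mcpt4 1.098 in females and 0.150 in males. For Fcer1a it was 1.48 in females and 0.431 in males. Kit (0.468 in females, 0.510 in males) and Hdc (0.427 in females, 0.558 in males) spread about as much in each sex. The ratio of female to male SD was 1.31 for Gata2 and 1.58 for Tpsab1, beside a median of 1.30 over all tested genes. Over all tested genes the median SD was 0.236 in females and 0.172 in males. These spreads are descriptions of 4 libraries each and were not tested.

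Female replicate 4 was the highest of the 8 libraries for 9 of the 10 members, all except Kit, and the same library was highest for 19.7% of all tested genes. Relative to the mean of the other females it stood 2.94-fold higher for Cpa3, 3.37-fold for Cma1 and 3.63-fold for Fcer1a, but 1.76-fold for Hdc and 1.21-fold for Kit. Female replicate 2 was the lowest of the 8 for 6 members (Cpa3, Mcpt4, Cma1, Tpsb2, Fcer1a and Ms4a2), and for 11.2% of all tested genes.

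The granule proteases and the FcεRI chains varied together from library to library. Correlations of log2 CPM were computed over the 8 libraries for all 45 pairs of members, with two-sided exact permutation p-values adjusted over the 45. The median Pearson r was 0.69, and 18 pairs passed. Among Cpa3, Mcpt4, Cma1, Tpsb2, Fcer1a and Ms4a2, a set of 6 put together after their counts were seen, all 15 pairs passed, with r from 0.88 to 0.99. The closest pair was Cpa3 and Mcpt4 (r = 0.99, exact permutation adjusted p = 0.00363, and Spearman rho 0.93, exact permutation adjusted p = 0.0201). Cpa3 with Fcer1a gave r = 0.94 (exact permutation adjusted p = 0.00625, and rho 0.83, adjusted p = 0.0865). By Spearman's rho 5 of the 45 pairs passed. All genes of a library share its depth and tissue composition, so each r describes these 8 libraries.

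The extreme females carried part of these correlations. When the 2 libraries farthest from the median of the first gene were left out, which were female replicate 4 with either female replicate 1 or female replicate 2, r among those 15 pairs ranged from 0.54 to 0.90 with a median of 0.78. For Cpa3 and Mcpt4 it was 0.89, and for Cpa3 and Fcer1a 0.76. Without female replicate 4 alone, r among the 15 pairs ranged from 0.76 to 0.98, and 3 of the 45 pairs passed. Taken as deviations from the mean of each sex, r among the 15 ranged from 0.88 to 0.99, and 22 of the 45 pairs passed.

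Kit, Hdc and Tpsab1 had lower values. Kit had a median r of 0.22 with the other members, and 0 of its 9 pairs passed. Its closest partner was Hdc (r = 0.70, exact permutation adjusted p = 0.0698, and rho 0.74, adjusted p = 0.159), which did not pass; without female replicate 3 and male replicate 4, the libraries farthest from the median of Kit, r was 0.94. Hdc had a median r of 0.41 and 0 passing pairs. Tpsab1 had r from 0.58 with Cpa3 to 0.79 with Cma1 among the 6 genes, and 0 of these pairs passed (exact permutation adjusted p = 0.207 with Cpa3 and 0.0545 with Cma1). Its rho with them was 0.26 to 0.55 (smallest exact permutation adjusted p = 0.335), and without the 2 farthest libraries r was -0.15 to 0.43. Tpsab1 with Gata2 had r = 0.75 (exact permutation adjusted p = 0.0613, and rho 0.79, adjusted p = 0.114), and 0.61 without female replicate 4 and male replicate 4. Gata2 passed with Mcpt4, Cma1 and Tpsb2, with r from 0.73 to 0.77 (largest exact permutation adjusted p = 0.0382). By Spearman's rho, from 0.62 to 0.81, these 3 did not pass (smallest exact permutation adjusted p = 0.109). Without female replicates 2 and 4, r was 0.58 for Mcpt4 and 0.61 for Tpsb2, and without female replicates 1 and 4 it was 0.29 for Cma1.

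**Figure D3:**
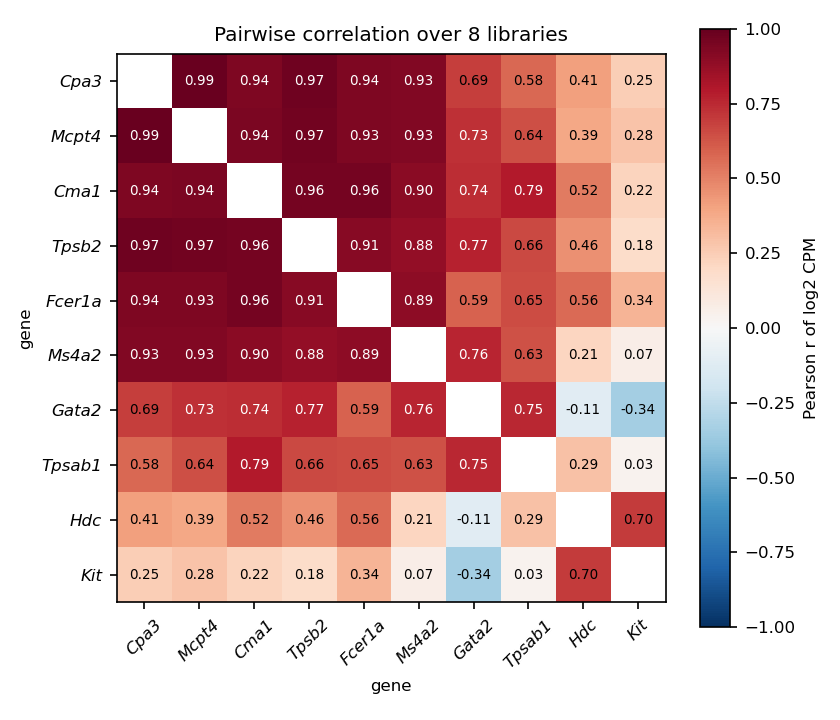
Pearson r of log2 CPM over the 8 libraries for each pair of genes, from blue (negative) to red (positive). Cpa3, Mcpt4, Cma1, Tpsb2, Fcer1a and Ms4a2 form a block with r of 0.88 or more, and Kit and Hdc lie outside it.

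Ratios between proteases were taken within each library, where library size cancels. The ratio of Cma1 counts to Cpa3 counts was 1.61, 1.70, 1.48 and 1.81 in female replicates 1 to 4, against 1.17, 1.17, 1.27 and 1.06 in male replicates 1 to 4. Every female library lay above every male library, although the level of Cpa3 itself ran both higher and lower in females than in males. The geometric mean ratio was 1.64 in females and 1.17 in males, a log2 difference of 0.50 (SE 0.08, n = 4 each). The two-sided exact permutation p was 0.0286, the smallest that 4 against 4 can give, and 0.143 when adjusted over the 10 ratios among the 5 proteases. A single ratio at this smallest p could not pass the adjustment unless most of the 10 reached it too. The adjusted value therefore cannot decide whether this ratio differs between the sexes. The ratios were computed after the counts had been seen. Within a sex the SD of this log2 ratio was 0.125 in females and 0.106 in males, close to the counting error of 0.101 in a single library. With any 1 library left out the log2 difference stayed between 0.45 and 0.55.

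Cma1 was also set against Mcpt4 and Tpsb2, and here the sexes overlapped. Cma1 over Mcpt4 was 1.02 to 1.41 in females and 0.838 to 1.05 in males (exact permutation p = 0.0857, adjusted 0.143). Cma1 over Tpsb2 was 1.55 to 1.95 in females and 1.21 to 1.58 in males (exact permutation p = 0.0571, adjusted 0.143). Mcpt4 over Cpa3 was 1.24 to 1.44 in females and 1.11 to 1.32 in males (exact permutation p = 0.200, adjusted 0.250). None of the 10 ratios passed after adjustment, which needed most of the 10 to reach the smallest p, and 1 of the 10 had no overlap. Tpsb2 over Tpsab1 was 4.37 to 7.15 in females and 6.48 to 15.6 in males (exact permutation p = 0.0857, adjusted 0.143). Tpsab1 made up 2.62 to 4.38% of the counts of the 5 proteases in females and 1.28 to 3.03% in males. The highest female share was 4.38% in female replicate 2 (95% Clopper-Pearson interval 3.13 to 5.94%), and the lowest male share 1.28% in male replicate 4 (0.801 to 1.93%). The interval of male replicate 2 (2.19 to 4.07%) overlapped that of every female library. Those of female replicate 1 (1.98 to 3.40%) and female replicate 4 (2.24 to 3.07%) overlapped further male intervals. These were male replicate 1 (1.17 to 2.61%) and male replicate 3 (1.42 to 2.92%). All of these intervals cover counting error only.

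**Figure D4:**
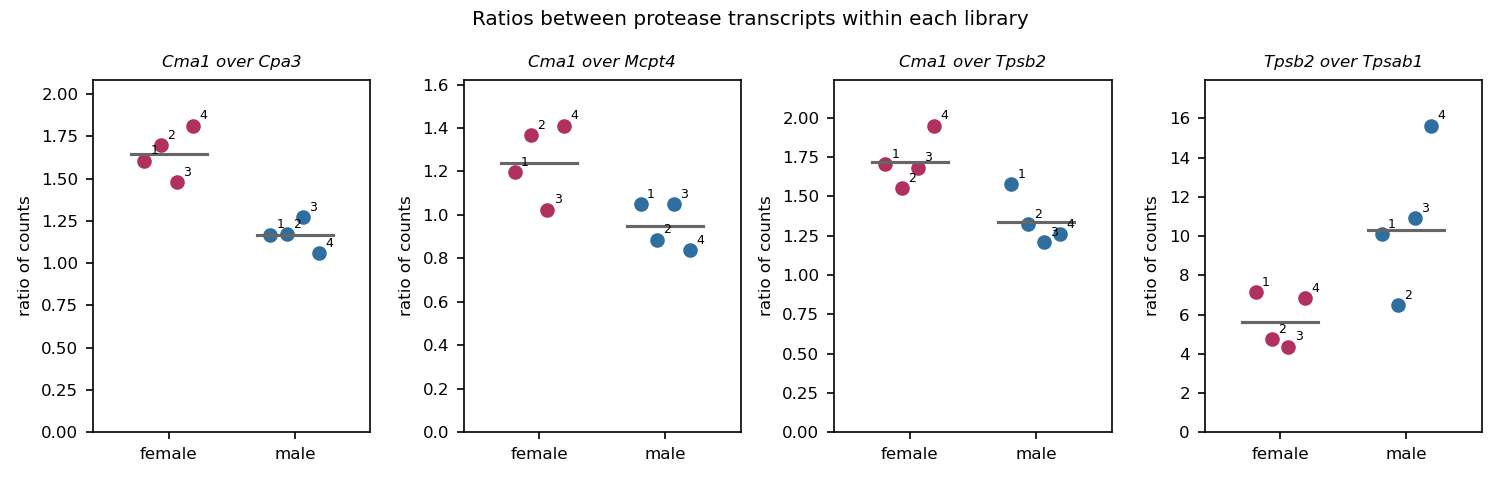
Ratio of counts between protease genes within each library on a linear axis from 0, for 4 female and 4 male libraries numbered by replicate, with grey lines at the geometric mean. Cma1 over Cpa3 is the panel without overlap, with females from 1.48 to 1.81 and males from 1.06 to 1.27.

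Per length, the chymases Cma1 and Mcpt4 had the highest means. Counts were scaled to TMM library size and to the union of exons in GENCODE vM21 (RPKM), since the annotation used for counting is not given in the sources used here. Over the 8 libraries Cma1 averaged 27.5 ± 20.6 RPKM, Mcpt4 23.6 ± 13.1, Cpa3 14.1 ± 7.70, Tpsb2 11.7 ± 6.58 and Kit 9.45 ± 3.08 RPKM (SD, n = 8). By sex, Cma1 averaged 35.7 ± 28.4 RPKM in females and 19.3 ± 1.45 RPKM in males, and Mcpt4 27.3 ± 18.9 RPKM in females and 19.997 ± 2.12 RPKM in males (SD, n = 4 each), so Cma1 led in the female mean, with female replicate 4 at 75.5 RPKM, and Mcpt4 in the male mean. Cma1 exceeded Mcpt4 in 6 libraries, Mcpt4 exceeded Cpa3 in 8 and Cpa3 exceeded Tpsb2 in 8, while Tpsb2 and Kit changed places, with Tpsb2 higher in 4. Gata2 (2.27 ± 0.681 RPKM), Fcer1a (1.87 ± 1.65), Hdc (1.28 ± 0.424) and Tpsab1 (1.21 ± 0.780) followed, and their ranges overlapped. Ms4a2 was lowest at 0.214 ± 0.107 RPKM, below Tpsab1 in all 8 libraries.

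Most neighbouring genes of the chymases had few reads. Between Cma1 and Gzmb on chromosome 14, in the gene order of RefSeq, the mucosal mast cell proteases Mcpt1 and Mcpt2 had 6 and 1 counts over all 8 libraries together, Cma2 had 11, and Mcpt9 had 0. Ctsg, the cathepsin G gene, had 59, and Gzmb, the granzyme B gene that killer lymphocytes also express, had 110. Mcpt8, which marks basophils, had 3, and the basophil protease Prss34 had 49 and did not pass the filter. The Prss34 counts were 7, 0, 5 and 29 in female replicates 1 to 4, against 3, 2, 2 and 1 in male replicates 1 to 4, so 29 of the 49 were in female replicate 4, the library highest in mast cell transcripts. The part of basophils in the results was not tested. Tpsg1, a membrane-anchored tryptase on chromosome 17, had 148 counts in all, at 1.12, 0.416, 0.882 and 2.08 CPM in female replicates 1 to 4, against 0.497, 0.962, 0.436 and 0.490 CPM in male replicates 1 to 4 (log2 fold change of 0.92 with SE 0.50 and adjusted p = 0.833 by edgeR).

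Other mast cell genes, listed with earlier results of these data known, did not pass either. Of 20 such genes 18 were tested, edgeR and DESeq2 called 0, 15 log2 fold changes lay above 0, beside 52.7% of all tested genes, with a median of 0.17, and 4 had an unadjusted p under 0.05 in edgeR, all with females higher, beside 4.08% of all tested genes. Those 4 were Hpgds, Alox5, Adora3 and Slc18a2. The most abundant genes of the list were Ptgs1, a prostaglandin synthase at 108 ± 23.7 CPM over the females and 107 ± 4.73 CPM over the males, Alox5ap, the helper of 5-lipoxygenase at 52.1 ± 27.0 CPM over the females and 51.0 ± 5.44 CPM over the males, and Ndst2, an enzyme of heparin sulphation at 40.6 ± 1.79 CPM over the females and 37.1 ± 0.855 CPM over the males (SD, n = 4 each). Srgn, the granule proteoglycan, followed at 34.9 ± 15.3 CPM over the females and 33.9 ± 7.48 CPM over the males (SD, n = 4 each). Hpgds, which makes prostaglandin D2, had 24.3, 25.02, 28.2 and 30.3 CPM in female replicates 1 to 4, against 19.4, 14.3, 23.0 and 21.8 CPM in male replicates 1 to 4. Its female libraries all lay above its male libraries (log2 fold change of 0.46 with SE 0.16 and adjusted p = 0.667 by edgeR), as they did for Adora3, Ltc4s and Ndst2, 4 of 18 genes beside 2.93% of all tested genes. Female replicate 4 was not the highest library for Adora3, Ltc4s or Ndst2. Hpgds, Alox5 and Ltc4s encode enzymes of lipid mediator synthesis that macrophages also express. Slc18a2, the transporter that loads histamine into granules, averaged 3.46 ± 1.49 CPM over the females and 1.90 ± 0.602 CPM over the males (SD, n = 4 each, log2 fold change of 0.87 with SE 0.37 and adjusted p = 0.761 by edgeR). Mrgprb2, the mast cell receptor for basic peptides, averaged 3.02 ± 1.67 CPM over the females and 2.67 ± 1.003 CPM over the males (SD, n = 4 each, log2 fold change of 0.18 with SE 0.46 and adjusted p = 0.999 by edgeR).

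The signalling genes below FcεRI and the factors that act on mast cells did not pass in edgeR or DESeq2. Of 12 tested FcεRI signalling genes 0 were called and 0 had an unadjusted p under 0.05 in edgeR. Over all tested genes edgeR called 0.0947%, and 6.53% had an unadjusted p under 0.05, which also holds for the lists that follow. Of the 12, 11 lay above 0, beside 52.7% of all tested genes, with a median log2 fold change of 0.16. Female replicate 4 was the highest library for 10 of the 12, beside 19.7% of all tested genes. The kinase gene Syk was not analysed here. Fcer1g, the gamma chain shared with other Fc receptors, had 53.8, 30.01, 29.1 and 94.8 CPM in female replicates 1 to 4, against 47.9, 41.3, 46.1 and 54.1 CPM in male replicates 1 to 4, and Lyn, the kinase that starts the cascade, averaged 29.4 ± 14.9 CPM over the females and 25.9 ± 2.11 CPM over the males (SD, n = 4 each). Of 6 tested growth and activating factors 0 were called and 0 had an unadjusted p under 0.05. Kitl, the ligand of Kit, had 54.5, 36.6, 50.2 and 62.1 CPM in female replicates 1 to 4, against 42.2, 55.1, 49.9 and 55.5 CPM in male replicates 1 to 4 (log2 fold change of 0.0045 with SE 0.16 and adjusted p = 0.999 by edgeR). Il33, an alarmin that activates mast cells, was highest in female replicate 4 (log2 fold change of 0.25 with SE 0.25 and adjusted p = 0.995 by edgeR). Cxcl12, a chemokine, was the most abundant at 279.7 ± 93.1 CPM over the females and 278 ± 14.9 CPM over the males (SD, n = 4 each). Of 3 tested genes of the basophil list edgeR and DESeq2 called 0, and 0 had an unadjusted p under 0.05.

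Markers of other cell types also differed between these libraries. Of 10 tested macrophage markers, 10 were highest in female replicate 4, and their summed level was 468 to 1551 CPM in females and 871 to 958 CPM in males. Of 10 fibroblast markers 8 were highest there (summed 7446 to 17788 CPM in females, 11314 to 15907 CPM in males), and of 9 endothelial markers 5 (332 to 628 CPM in females, 355 to 581 CPM in males). Of 11 tested keratinocyte markers 0 were highest there (66358 to 96570 CPM in females, 81441 to 105349 CPM in males). Between the sexes edgeR called 0 of these 11 (3 at an unadjusted p under 0.05). DESeq2 called 1, Lor, as higher in males, beside 57 of 17408 genes over the whole table. As a description, the mean log2 CPM of the 10 members had r = 0.77 with the macrophage list over the 8 libraries, 0.71 with fibroblasts, 0.72 with endothelium and -0.78 with keratinocytes. It had r = 0.17 with fast muscle. Without female replicate 4, r was 0.58 with macrophages, 0.47 with fibroblasts, 0.50 with endothelium, -0.58 with keratinocytes and 0.13 with fast muscle. Without the 2 libraries farthest from the median of each list, r was 0.96 with macrophages and 0.75 with fibroblasts (female replicates 2 and 3 left out), 0.86 with endothelium (female replicate 4 and male replicate 2 left out), 0.0062 with keratinocytes (female replicates 1 and 4 left out) and 0.37 with fast muscle (female replicate 3 and male replicate 2 left out). With the Schwann cell, adipocyte and melanocyte lists, r of the members' mean was 0.63, 0.56 and 0.31 over all 8 libraries. Without female replicate 4 it was 0.48, 0.52 and 0.090 in that order. Without the 2 libraries farthest from the median of each list it was 0.50, 0.22 and 0.58. The part of these tissue components in the results was not tested.

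Gata2 and Kit were also set beside the marker lists one by one. For Gata2, Pearson r was 0.95 with the endothelial list (exact permutation adjusted p = 0.0288, and rho 0.86, adjusted p = 0.137) and -0.96 with the keratinocyte list (exact permutation adjusted p = 0.0288, and rho -0.88, adjusted p = 0.137), the 2 relations that passed by Pearson's r among 80 of members with lists. By Spearman's rho 0 passed. Without the libraries farthest from the median of the list, r was 0.92 with endothelium and -0.97 with keratinocytes. Gata2 also had r = 0.93 with the Schwann cell list (exact permutation adjusted p = 0.0696, and rho 0.93, adjusted p = 0.137), which did not pass. Without female replicate 4 and male replicate 1 that r was 0.89. Other members reached the same exact permutation adjusted p = 0.0696 by Pearson's r and did not pass either. Tpsb2 did so with macrophages (r = 0.87), fibroblasts (0.83), endothelium (0.80) and keratinocytes (-0.81). Cpa3 did so with macrophages (0.88) and fibroblasts (0.83), Mcpt4 with endothelium (0.78), and Ms4a2 with macrophages (0.84). Cma1, Tpsab1 and Ms4a2 did so with keratinocytes (-0.83, -0.82 and -0.82). Kit had r = -0.81 with fast muscle (exact permutation adjusted p = 0.0696, and rho -0.83, adjusted p = 0.137), and r was -0.71 without female replicate 3 and male replicate 2. With the melanocyte list, a source of Kit, it had r = 0.42 (exact permutation adjusted p = 0.448, and rho 0.38, adjusted p = 0.588), and r was 0.40 without male replicates 3 and 4 but 0.73 without female replicate 3. The melanocyte genes summed to 21.0 to 31.1 CPM in females and 24.4 to 35.5 CPM in males. Most of this sum was Sox10, which is also on the Schwann cell list, at 12.8 to 21.7 CPM in females and 16.8 to 25.4 CPM in males.

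**Figure D5:**
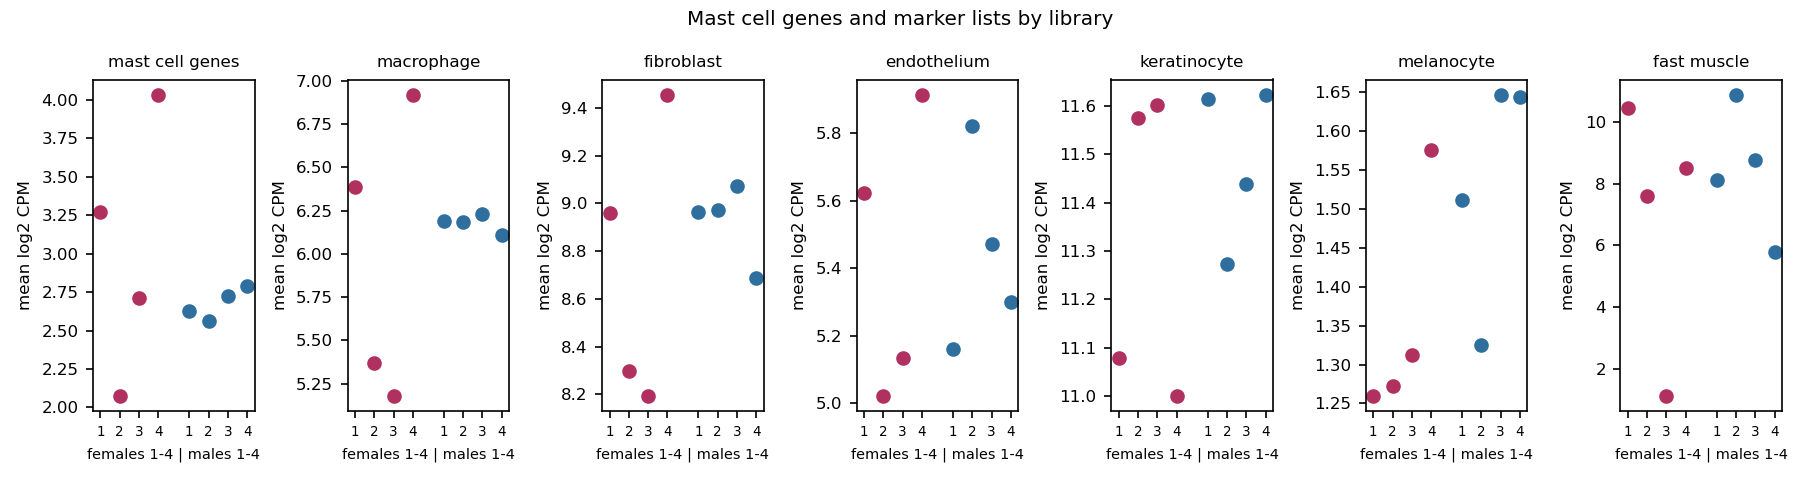
Mean log2 CPM of the 10 mast cell genes and of 6 marker lists in each library, females in red and males in blue, each panel with its own axis. Female replicate 4 is the highest library for mast cell, macrophage, fibroblast and endothelial genes and the lowest for keratinocyte genes, and female replicate 3 is lowest for fast muscle.

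The genes most like the members in pattern were taken over the whole table. Among 14089 tested genes with a mean of at least 1 CPM, the 10 with the highest r to the mean centred log2 CPM of the members were Dock10, Asah1, Pip4k2a, Cald1, Myo1c, 4930503L19Rik, Rap1b, Ick, Lpcat1 and Fam65b, with r from 0.95 to 0.97 over 8 libraries. Of these 10, 0 are in the other mast cell, FcεRI or basophil lists used here, and 2 of them, Dock10 and Myo1c, were among the 10 most alike when female replicate 4 was left out. Dock10 stood at 34.3 CPM in female replicate 4 and at 26.1 CPM or less in the other 7 libraries. Over the other mast cell genes r with the members' mean ran from -0.78 for Ptgs1 to 0.83 for Cyp11a1, with 0.094 for Adora3, 0.45 for Hpgds and 0.79 for Mrgprb2. Without female replicate 4 it was -0.38 for Ptgs1, 0.49 for Cyp11a1, -0.098 for Adora3, 0.097 for Hpgds and 0.73 for Mrgprb2. Over the FcεRI signalling genes it ran from -0.54 for Plcg1 to 0.90 for Inpp5d, and without female replicate 4 it was -0.24 for Plcg1 and 0.64 for Inpp5d. Kitl had 0.78 over all 8 libraries and 0.75 without female replicate 4, and Il33 had 0.92 over all 8 and 0.71 without it. Csf2rb, the shared receptor chain for IL-3 and related cytokines, had 0.95 over all 8 and 0.84 without it.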

How the data were processed

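RNA of paw tissue was sequenced in 8 libraries. Per the labels' protocols, about 500 ng total RNA entered a stranded kit with oligo-dT selection, and reads were 50 bp and single-end. The submitters' processing notes name mm9, HTSeq, TopHat2 and bcl2fastq, while their versions, the annotation and the strand setting were not given in the sources. What the authors deposited were whole-number read counts per gene symbol, unnormalized. The 5 counter lines without a gene were dropped, and of uniquely placed reads 18.0 to 21.1% fell in no feature. Reads with more than 1 placement have their own line in the files and were not in any gene's count. Each library was counted as a replicate. Pairs of same-sex libraries differed beyond sampling noise (chi-square per degree of freedom 13.2 or more), which does not show whether they came from separate animals.

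Female was compared with male in edgeR 4.0.16 (R 4.3.3): filterByExpr, TMM, robust quasi-likelihood test, sex alone, Benjamini-Hochberg over 14790 genes, calls at adjusted p under 0.05. Each SE divides the log2 fold change by the root of the F statistic. Log2 CPM used a prior count of 0.5. The fit was tested on simulated data. There it recovered 6 of 63 genes with a 1.5-fold shift, 34 of 70 at 2-fold and 60 of 64 at 4-fold. It also picked 6 genes without a shift at each size. A difference of 2-fold or less in a member could therefore go unseen. Pairwise correlations and ratios used exact permutation (scipy 1.17.1). Alternatives were DESeq2 1.42.0, its size factors, no filter, a replicate block, a fast muscle covariate, other scalings and each library left out. Members and lists were chosen with earlier results of these data known. Named were all members, called or abundant genes of the mast cell, FcεRI, growth factor and basophil lists, the 10 genes most like the members, and Xist and Ddx3y. Ctsg, Cma2 and their neighbours, Adora3, Ltc4s, Slc18a2, Mrgprb2, Cyp11a1, Lor, Tpsg1 and the ratios were singled out after their values were seen.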

Additional observations from a re-analysis of the deposited data

Results flagged for a closer look

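In 44 checks of 4 libraries of 1 sex (the 10 members, the 10 protease ratios, the summed protease level and the total counts), 1 library lay far from the other 3, where chance flags about 1 in 20 groups. That value was the ratio of Mcpt4 to Tpsb2 in male replicate 3, a log2 ratio of 0.203, against 0.578 to 0.588 in the other males. Tpsb2 stood at 19.1 CPM there, the highest of the males.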

How the results depend on the processing

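No setting called any of the 10 members in either direction. Genes called over the whole table numbered 6 higher in females and 8 higher in males; DESeq2 called 53 higher in females and 57 in males, and the replicate block 2 in females and 5 in males. With each library left out these counts ran from 2 to 7 for females and from 6 to 10 for males. The cause of these shifts was not tested. With the replicate block all 10 members lay above 0 (median log2 fold change 0.23). Correlations of deviations between same-numbered libraries ran from -0.29 to -0.09, so the numbers gave no sign of pairing. With the fast muscle covariate the log2 fold change of Kit was -0.017. With each library left out, log2 fold changes ran from -0.24 to 0.63 for Cpa3, -0.10 to 0.74 for Mcpt4, -0.14 to 0.70 for Tpsb2, -0.030 to 0.68 for Ms4a2 and -0.056 to 0.42 for Kit. Pairs of members past the threshold then numbered 3 to 20 against 18, with fewer libraries in each test, and the median r ran from 0.43 to 0.80. The r of Cpa3 with Hdc ran from -0.12 to 0.62. Other scalings, a prior count of 2 (chosen after seeing the data) and deviations from sex means gave 18 to 22 pairs. The log2 difference in the ratio of Tpsb2 to Tpsab1 ran, in an alternative chosen after seeing the data, with each library left out, from -1.09 to -0.67. Depth limits Ms4a2 most, with 101 counts in all.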
